A study of Mus musculus with 6 samples.

Results

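The 42 genes described here carry fatty acids from the capillary into the heart muscle cell and break them down. They were taken by symbol from the deposited gene counts: 42 of the 18005 genes listed, and all 42 were among the 12893 genes with enough counts to be tested. They cover uptake, activation to acyl-CoA, the carnitine shuttle and its malonyl-CoA control, the beta-oxidation enzymes of mitochondria and peroxisomes, thioesterases and uncoupling proteins. Hearts of 3 old and 3 young mice were compared by RNA sequencing of polyadenylated transcripts, 1 library from each of the mice that the labels number 1 to 3 in a group. Both groups were labelled wild type with no treatment, and the labels give neither the ages in months nor the strain nor the sex. By its title the series is about heart enlargement with age.

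The adult heart draws most of its energy from long-chain fatty acids, which reach it bound to albumin or inside triglyceride-rich lipoproteins. Lipoprotein lipase on the capillary wall frees them, membrane and cytosolic carriers take them into the cell, and acyl-CoA synthetases trap them as CoA esters. Because acyl-CoA cannot cross the inner mitochondrial membrane, the carnitine shuttle ferries the acyl group in. There each turn of beta-oxidation (dehydrogenation, hydration, a further dehydrogenation and thiolysis) removes an acetyl-CoA and feeds electrons to the respiratory chain. Nuclear receptors of the PPAR and ERR families control much of this gene set.

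Library totals lay between 11295280 and 12514005 counts, and a single count stood for some 0.0839 CPM, the unit used below for counts scaled to library size with TMM factors. Members had between 47 and 82825 counts in a library. Together they took 3.04%, 2.96% and 3.15% of the counts in old libraries, against 2.82%, 2.81% and 2.83% in young libraries. Without Fabp3 these shares were 2.38%, 2.36% and 2.44% in old and 2.35%, 2.29% and 2.38% in young libraries, so that the groups met. The 12 cardiomyocyte markers summed to 96269.7 to 100048 CPM in old and 84210.5 to 88805 CPM in young libraries, without overlap, and of them Actc1 and Tnni3 were called higher and Ttn lower. Without Actc1, a choice made after seeing the values, the other 11 summed to 80118.7 to 82913 CPM in old and 76055 to 80895 CPM in young libraries, with overlap, and the median log2 fold change of the list was 0.05. The defining genes of heart muscle were thus abundant in all 6 libraries. Of 10 adipocyte markers only the lipase gene Lipe had enough counts to be tested. Adipoq, Plin1, Cidec, Lep, Retn, Cfd, Slc7a10 and Adrb3 each stayed under 1.5 CPM in every library, and Ucp1 had no count. Of 12 endothelial markers Esam was called higher and Kdr and Tek lower, and their sum was 2792 to 3229.8 CPM in old and 2905 to 3258 CPM in young libraries. Of 10 macrophage markers Cd68, C1qa and C1qb were called higher, and their sum was 988 to 1252 CPM in old and 904.5 to 1003 CPM in young libraries. Of 8 skeletal muscle markers 3 were tested and 2 called higher, Myl1 and Ckmt2, both also transcribed in heart. The other 6 summed to 3.1 to 4.32 CPM in old libraries, and to 1.72, 2.28 and 31.7 CPM in young libraries, so that young 3 stood apart. The 6 hepatocyte markers summed to 59.7 CPM in young 1 and to between 5.88 and 14.8 CPM in the other 5 libraries. In whole hearts fewer cells of a type and less RNA per cell cannot be told apart.

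Most of the pathway moved little between old and young hearts, and the changes that passed the test were small and mainly upward. Of the 42 members, 11 were higher and 2 lower in old hearts at an edgeR adjusted p under 0.05, and 29 were not called. Of the members 26.2% were called higher, against a background of 11.4% of all tested genes. Called lower were 4.76% of the members and 10.6% of all tested genes, and called in either direction 31.0% of the members and 22.0% of all tested genes. Most members are abundant, and among the 30 with a mean of at least 100 CPM 33.3% were called higher and 36.7% in either direction. Of all genes at that level 19.3% were called higher, 8.44% lower and 27.7% in either direction. The 11 higher members rose by 1.21-fold to 1.58-fold, and no called member changed 2-fold. The median log2 fold change was 0.13 over the members and -0.01 over all tested genes. In 18 members, or 42.9%, every old library lay above every young one in TMM-scaled CPM, as in 19.6% of all tested genes. Among these 18, Acsl5, Acadl, Hadh, Eci1 and Eci2 overlapped between the groups on deposited FPKM. Separation was not computed over genes of at least 100 CPM alone. In 4 members, or 9.52%, every old library lay below, as in 20.3% of all tested genes, and 39.9% of all tested genes were separated either way. The count rested in part on single libraries: 5 members were called higher without young 1 and 7 without old 1, and the lower members numbered 1 without either of these and 5 without old 3. Scaling also mattered, since with library size alone 9 members were called higher and 4 lower, with upper-quartile factors 10 and 4, and on deposited FPKM values with a mean of at least 1, tested with limma, 9 and 4. Members called higher were then 69.2%, 71.4% and 69.2% of the calls, and 84.6% under TMM. Over all genes 51.7% of the calls were higher under TMM, 32.7% with library size alone, 40.2% with upper-quartile factors and 35.1% on FPKM. With the gene length trend removed 9 members were called higher and 2 lower, and the median log2 fold change of the members was 0.08.

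**Figure D1:**
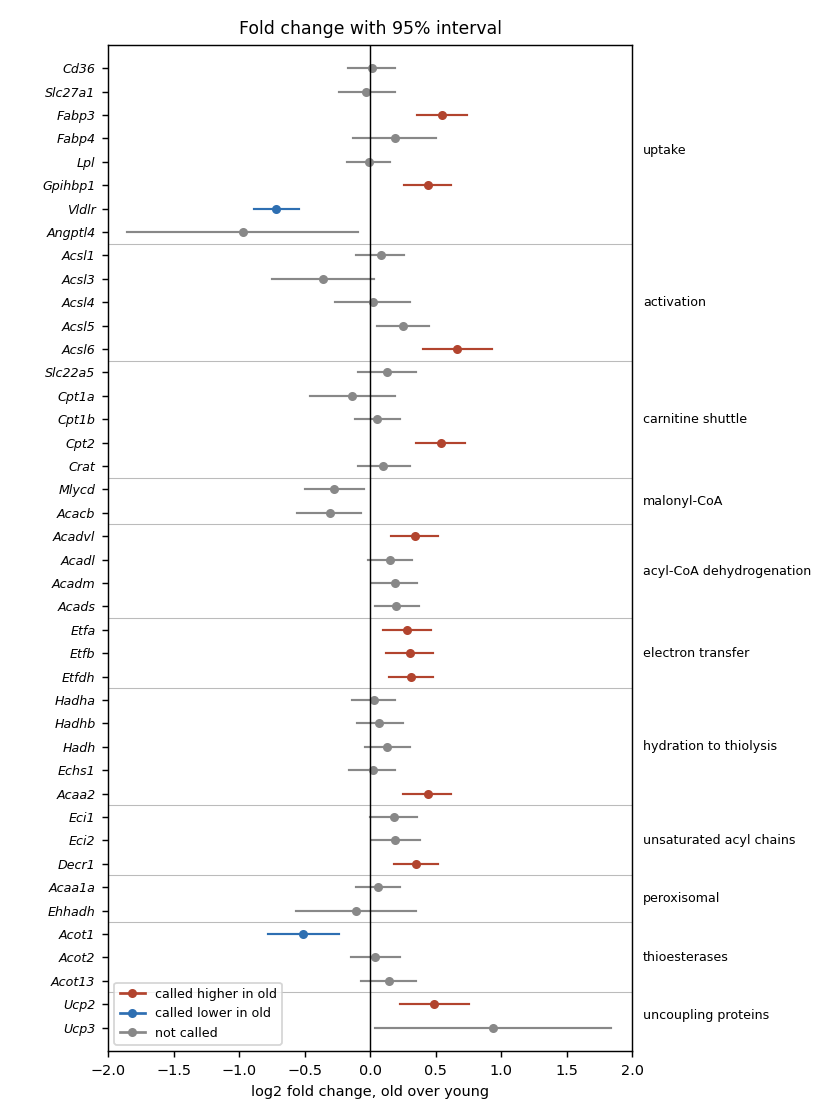
Log2 fold change of old over young hearts for the 42 members from the edgeR fit of all 6 libraries, grouped by pathway step, with bars for the 95% interval. The 11 members called higher lie between 0.28 and 0.66, the 2 called lower are Vldlr and Acot1, and the widest intervals are those of Angptl4 and Ucp3.

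Levels differed far more between members than between ages. On the FPKM scale, which divides by gene length, Fabp3 stood highest at 9713 ± 729.9 FPKM in old and 6999.6 ± 498.5 FPKM in young hearts (SD, n = 3 each). Lpl followed with 1054 ± 14 FPKM in old and 1124 ± 50.7 FPKM in young hearts, and then Fabp4 with 1050.1 ± 234 FPKM in old and 971 ± 116 FPKM in young hearts. These are the main cytosolic carrier of heart muscle, the capillary lipase and a carrier best known from fat cells and endothelium. At the other end Acsl3 had 1.21 ± 0.267 FPKM in old and 1.64 ± 0.0569 FPKM in young hearts, and Acsl6 had 2.9 ± 0.402 FPKM in old and 1.94 ± 0.151 FPKM in young hearts. FPKM is not TMM scaled, so an age difference in FPKM can deviate slightly from the CPM-based fold change. Levels per length also depend on the gene model: the length behind the FPKM of Etfa is 9685 bases, 6.96 times its longest GENCODE transcript of 1392 bases. On the GENCODE length Etfa would stand at 471 FPKM in old and 410.0 FPKM in young hearts in place of 67.6 and 59 FPKM. The CPM-based fold changes do not use this length, except in the fit that removes the gene length trend. Which reads the longer gene model of Etfa counted was not tested.

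**Figure D2:**
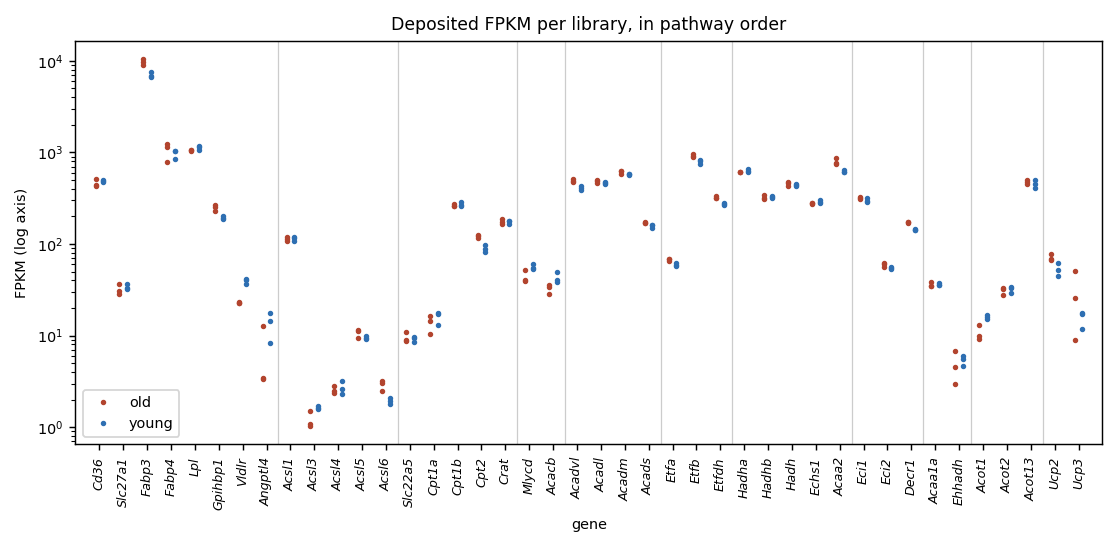
Deposited FPKM of each member in each library on a log axis, in pathway order, with old libraries at the left of each pair and young libraries at the right. Fabp3 stands apart at the top in all 6 libraries, and Acsl3, Acsl6 and Acsl4 have the lowest means. Etfa is plotted on the deposited length, 6.96 times its longest GENCODE transcript.

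At the vessel wall and the cell membrane, old hearts had more Fabp3 and Gpihbp1 transcript and less Vldlr, while Cd36 and Lpl were not called and had estimates close to 0. Fabp3 encodes the cytosolic fatty acid binding protein of cardiac and skeletal muscle. It had 6808, 6386 and 7178 CPM in old libraries, against 4445, 5104.5 and 4362 CPM in young libraries. Every old library was above every young one, and old 3 was highest (log2 fold change 0.55 ± 0.09 SE, edgeR adjusted p = 0.0013). After removal of the gene length trend its log2 fold change was 0.35, still called, and on FPKM with no filter the limma adjusted p was 0.072. The longest Fabp3 transcript shares 21.7% of its 100-base windows with a pseudogene, Fabp3-ps1, that has no row in the counts. Gpihbp1, which anchors lipoprotein lipase on the capillary endothelium, had 216, 197 and 222 CPM in old libraries, against 159, 154 and 154 CPM in young libraries. The 3 young libraries were almost equal and the old ones all above them (log2 fold change 0.44 ± 0.08 SE, edgeR adjusted p = 0.0031). Its log2 fold change was 0.25 after removal of the gene length trend, where the call was lost (edgeR adjusted p = 0.054). The summed endothelial markers given above overlapped between the groups, while single markers were called in both directions. A part of cell content in the Gpihbp1 difference was not tested.

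Vldlr encodes the very low density lipoprotein receptor, which takes up triglyceride-rich particles. It had 295, 302 and 299 CPM in old libraries, against 508, 462.5 and 503.5 CPM in young libraries. The old libraries were within 3% of each other and all lay far below the young ones. At a log2 fold change of -0.72 ± 0.08 SE and edgeR adjusted p = 0.0001, it had the smallest p among the members, and it was called lower in each of the 18 alternative fits. The deposited FPKM of Vldlr rests on a length of 12715 bases, 1.6 times its longest GENCODE transcript of 7971 bases. This lowers its FPKM level, while its CPM-based fold change is not divided by length. Which reads the longer gene model counted was not tested. On the deposited values the ratio of Vldlr to Cd36 was 0.0509, 0.0524 and 0.0456 in old libraries, against 0.0839, 0.0778 and 0.0837 in young libraries. The groups did not overlap in this ratio, and an exact 2-sided permutation test gave p = 0.1, the smallest that 3 against 3 allows (adjusted p = 0.267 over the 8 ratios computed).

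Cd36, the main fatty acid translocase of the heart, had 1662, 1656 and 1882.5 CPM in old libraries, against 1738.5, 1706 and 1726 CPM in young libraries. The groups overlapped, and the log2 fold change of 0.01 ± 0.08 had a 95% interval of -0.17 to 0.19. Lpl, the lipase itself, had 4312, 4498 and 4360.2 CPM in old libraries, against 4438, 4285 and 4561 CPM in young libraries, again with overlap and an interval of -0.18 to 0.15. Slc27a1, a fatty acid transport protein with acyl-CoA synthetase activity, had an interval of -0.24 to 0.19. Fabp4 stood at 1014, 715 and 1082 CPM in old libraries, against 866, 895 and 705 CPM in young libraries. Old 2 was the second lowest of the 6 libraries and the groups overlapped (log2 fold change 0.19 ± 0.14 SE, edgeR adjusted p = 0.37), but without old 2 Fabp4 was called higher (0.36, adjusted p = 0.047). The defining adipocyte genes were at or near 0 in all libraries, as given above, and a part of cell content in the Fabp4 values was not tested. The share of Fabp4 in the summed FPKM of Fabp3 and Fabp4 was 10.4%, 8.05% and 10.5% in old libraries, against 13.2%, 12.1% and 11.2% in young libraries. Old shares were all below young ones (exact 2-sided permutation p = 0.1, adjusted p = 0.267).

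Angptl4 encodes a secreted inhibitor of lipoprotein lipase that is induced by fatty acids and fasting. It had 6.73, 6.65 and 24.5 CPM in old libraries, against 31.9, 15.6 and 26.5 CPM in young libraries. Old 1 and old 2 lay far below every young library, but old 3 lay within the young range. The gene missed the threshold (log2 fold change -0.97 ± 0.41 SE, edgeR adjusted p = 0.11), and without old 3 it was called lower at -1.88 (adjusted p = 0.00026). It was also called lower with limma-voom (-1.20, adjusted p = 0.048). The ratio of Angptl4 to Lpl was 0.00332, 0.00315 and 0.012 in old libraries, against 0.0153, 0.00776 and 0.0124 in young libraries, with overlap (exact 2-sided permutation p = 0.2, adjusted p = 0.4).

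**Figure D3:**
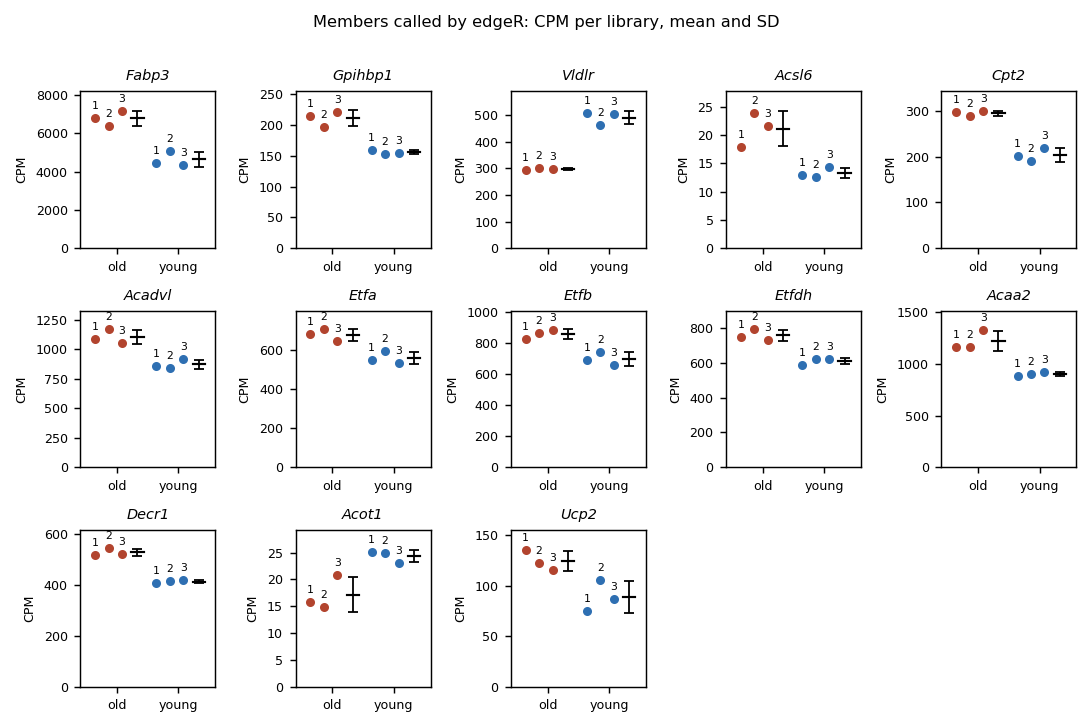
CPM of the 13 members called by edgeR in each library, with the mouse number above each point and the mean and SD (n = 3) beside the points. In all 13 the old and young points do not overlap, and old points lie below young ones only for Vldlr and Acot1.

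Of the 5 acyl-CoA synthetase genes, which activate free fatty acids, 1 was called, Acsl6, among those of lowest level. Acsl6, best known from brain and muscle, had 17.8, 23.9 and 21.6 CPM in old libraries, against 13, 12.6 and 14.3 CPM in young libraries. Every old library was above every young one, with old 1 lowest of the 3 (log2 fold change 0.66 ± 0.12 SE, edgeR adjusted p = 0.003). On the log2(FPKM + 1) scale, which understates changes of low genes, its difference was 0.41, still called. Acsl1, the main cardiac synthetase, had 759, 832 and 721 CPM in old libraries, against 731, 704 and 758 CPM in young libraries. The groups overlapped and the interval of its log2 fold change was -0.11 to 0.26. The share of Acsl1 in the summed FPKM of the 5 genes was 86.2%, 88.2% and 85.5% in old libraries, against 87.3%, 87.8% and 88.2% in young libraries, with overlap (exact 2-sided permutation p = 0.3, adjusted p = 0.48). Acsl5 had 40, 33.2 and 38 CPM in old libraries, against 32.4, 30.5 and 30.7 CPM in young libraries, without overlap but short of the threshold (log2 fold change 0.25 ± 0.09 SE, edgeR adjusted p = 0.071), and it was called without old 2 (0.33, adjusted p = 0.026). Acsl3, found on lipid droplets, had a log2 fold change of -0.36 ± 0.18 SE with edgeR adjusted p = 0.17, and was called lower without old 3 (-0.53, adjusted p = 0.049). Acsl4, which prefers arachidonic acid, had a log2 fold change of 0.02 ± 0.13 with an interval of -0.27 to 0.30.

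In the carnitine shuttle the inner-membrane enzyme gene rose and the outer-membrane ones did not pass the test. Cpt2, which turns acylcarnitine back into acyl-CoA inside the mitochondrion, had 297, 288 and 299 CPM in old libraries, against 201, 189.7 and 219 CPM in young libraries. The old libraries differed by less than 5% from each other and were all above the young ones (log2 fold change 0.54 ± 0.08 SE, edgeR adjusted p = 0.0011). It was called in each of the 18 alternative fits. Slc25a20, the carnitine-acylcarnitine carrier that works between the outer and inner transferases and is no member, had 288, 301.5 and 279 CPM in old libraries, against 223, 228 and 236 CPM in young libraries. It was higher in every old library (log2 fold change 0.34 ± 0.08 SE, edgeR adjusted p = 0.01), a call lost when young 1 was left out.

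Cpt1b, the muscle form of the malonyl-CoA sensitive transferase at the outer membrane, had 780.2, 789.8 and 797 CPM in old libraries, against 738, 737 and 809 CPM in young libraries. The groups overlapped, and the log2 fold change of 0.05 ± 0.08 had an interval of -0.12 to 0.23. Cpt1a, the liver form, had 74, 54.4 and 84.3 CPM in old libraries, against 85, 64.9 and 83.7 CPM in young libraries, with old 2 lowest and the groups overlapping (interval -0.46 to 0.19). The share of Cpt1a in the FPKM of both forms was 5.16%, 3.81% and 5.72% in old libraries, against 6.2%, 4.81% and 5.6% in young libraries. These shares overlapped (exact 2-sided permutation p = 0.5, adjusted p = 0.667). Slc22a5, the carnitine importer of the plasma membrane, and Crat, which makes short-chain acylcarnitines, had log2 fold changes of 0.13 ± 0.10 and 0.10 ± 0.09, and neither was called. The Cpt1b transcript shares 91.1% of its 100-base windows with Gm44502, which has no row in the counts, and Slc22a5 shares 13.7% with Slc22a21, which had 5 to 19 counts.

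Of the genes that set the malonyl-CoA level, both had lower values in every old library than in any young one, and neither passed the test. Acacb makes malonyl-CoA at the mitochondrial surface, and had 278, 351 and 323 CPM in old libraries, against 367, 361 and 452 CPM in young libraries. Mlycd degrades malonyl-CoA, and had 134.2, 131.7 and 167.8 CPM in old libraries, against 187.2, 167.9 and 169.9 CPM in young libraries. Old 3 and young 2 were all but equal in Mlycd, with old 1 lowest in Acacb and old 2 lowest in Mlycd. The log2 fold change was -0.31 ± 0.11 SE for Acacb with edgeR adjusted p = 0.069, and -0.28 ± 0.10 SE for Mlycd with edgeR adjusted p = 0.078. Acacb was called lower without old 2 (-0.38, adjusted p = 0.041) and with DESeq2 (-0.31, adjusted p = 0.037), and Mlycd without old 3 (-0.39, adjusted p = 0.0077). Both were called lower with library size alone, with upper-quartile factors and on FPKM values with a mean of at least 1. The ratio of Acacb to Mlycd was 0.699, 0.899 and 0.65 in old libraries, against 0.662, 0.726 and 0.898 in young libraries. It overlapped between the groups (exact 2-sided permutation p = 0.8, adjusted p = 0.9), and its small mean difference of -0.0128 changed sign without old 1, old 3 or young 3.

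The 15 enzymes of mitochondrial dehydrogenation, electron transfer, hydration to thiolysis and unsaturated chains all had a log2 fold change above 0 under TMM scaling, but 12 of them with library size alone or on FPKM and 13 with upper-quartile factors. Hadha was at -0.06, Hadhb at -0.01 and Echs1 at -0.06 with library size alone. Under TMM the 15 lay between 0.02 and 0.44 with a median of 0.19. Of the 15, 6 were called higher, beside 11.4% of all tested genes and 19.3% of those with a mean of at least 100 CPM. All 15 exceeded that level. With library size alone the median was 0.11 and 4 were called higher, and the median of all tested genes was -0.087. With the gene length trend removed the median of the 15 was 0.13 and 5 were called higher. Without young 1 only 1 of the 15 was called higher, and without old 1 only 3. In 12 of the 15 every old library was above every young one in TMM-scaled CPM, beside 19.6% of all tested genes. The share separated among genes with a mean of at least 100 CPM was not computed. Among these 12, Acadl, Hadh, Eci1 and Eci2 overlapped between the groups on deposited FPKM.

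Of the 4 acyl-CoA dehydrogenases, which open each turn for chains of a given length, the very long-chain enzyme gene was called. Acadvl had 1090.4, 1170.2 and 1053 CPM in old libraries, against 862, 840.0 and 918 CPM in young libraries. Old libraries were all above young ones (log2 fold change 0.34 ± 0.08 SE, edgeR adjusted p = 0.013), a call lost without young 1 (0.33, adjusted p = 0.071) and on FPKM with no filter (0.26, limma adjusted p = 0.052). Acadl, Acadm and Acads serve long, medium and short chains. Acadm had 1333.5, 1365 and 1227 CPM in old libraries, against 1111, 1189 and 1152 CPM in young libraries. In each of these 3 genes the groups did not overlap in CPM, but the differences were small. The log2 fold changes were 0.15 ± 0.08 for Acadl, 0.19 ± 0.08 for Acadm and 0.20 ± 0.08 for Acads. The edgeR adjusted p was 0.2, 0.12 and 0.077 in that order, and DESeq2 called Acads (0.21, adjusted p = 0.048).

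The 3 genes that pass electrons from these dehydrogenases to ubiquinone were all called higher, by nearly the same amount. Etfa and Etfb encode the subunits of the electron transfer flavoprotein and Etfdh its ubiquinone oxidoreductase. Etfa had 678, 702 and 643 CPM in old libraries, against 547, 590.2 and 532 CPM in young libraries. Etfb had 826, 868 and 886 CPM in old libraries, against 691.5, 744 and 658 CPM in young libraries. Etfdh had 748, 792 and 727 CPM in old libraries, against 588, 620.2 and 622 CPM in young libraries. In each gene the lowest old library was above the highest young one, with old 2 highest for Etfa and Etfdh and old 3 for Etfb. Etfa had a log2 fold change of 0.28 ± 0.08 SE with edgeR adjusted p = 0.032. For Etfb the log2 fold change was 0.30 ± 0.08 with edgeR adjusted p = 0.023, and for Etfdh it was 0.31 ± 0.08 with edgeR adjusted p = 0.017. These calls were close to the threshold. Without young 1 none of the 3 was called, with edgeR adjusted p = 0.14 for Etfa and 0.1 for Etfb and for Etfdh. Without old 1 the edgeR adjusted p was 0.098 for Etfa, 0.052 for Etfb and 0.054 for Etfdh. Etfa was also lost without old 2 (edgeR adjusted p = 0.077) and without young 3 (0.12), and Etfb without young 3 (0.093). With library size alone the edgeR adjusted p was 0.074 for Etfa and 0.055 for Etfb, with upper-quartile factors it was 0.058 for Etfa, and limma called neither on FPKM. Once the gene length trend was removed the log2 fold change of Etfb was 0.12 (edgeR adjusted p = 0.21). The Etfb transcript shares 65.2% of its 100-base windows with Gm45233, which has no row in the counts.

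Etfa, Etfb and Etfdh rose by similar amounts, but the order of the libraries differed among them, and shared control was not tested. Their promoters are shown, with that of Acsl6, the called synthetase. They are RefSeq sequences on GRCm38.p6, from 250 bases before to 50 after the transcription start, 5′ to 3′ on the gene's strand. Etfa lies at chr9:55512194-55512493 (minus strand), Etfb at chr7:43443822-43444121 (plus strand), Etfdh at chr3:79628718-79629017 (minus strand) and the Acsl6 start shown at chr11:54303574-54303873 (plus strand). Capitals mark matches to the motifs named after them.
Etfa: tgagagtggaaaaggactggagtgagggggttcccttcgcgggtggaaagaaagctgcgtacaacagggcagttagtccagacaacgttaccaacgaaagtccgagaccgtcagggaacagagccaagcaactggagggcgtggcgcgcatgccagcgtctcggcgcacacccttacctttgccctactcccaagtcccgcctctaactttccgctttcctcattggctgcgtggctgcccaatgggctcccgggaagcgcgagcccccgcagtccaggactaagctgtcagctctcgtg
Etfb: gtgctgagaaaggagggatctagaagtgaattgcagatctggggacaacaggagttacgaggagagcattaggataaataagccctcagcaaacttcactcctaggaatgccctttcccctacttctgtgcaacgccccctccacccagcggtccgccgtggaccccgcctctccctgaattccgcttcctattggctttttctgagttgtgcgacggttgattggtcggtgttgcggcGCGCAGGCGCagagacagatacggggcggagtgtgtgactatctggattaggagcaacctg
Etfdh: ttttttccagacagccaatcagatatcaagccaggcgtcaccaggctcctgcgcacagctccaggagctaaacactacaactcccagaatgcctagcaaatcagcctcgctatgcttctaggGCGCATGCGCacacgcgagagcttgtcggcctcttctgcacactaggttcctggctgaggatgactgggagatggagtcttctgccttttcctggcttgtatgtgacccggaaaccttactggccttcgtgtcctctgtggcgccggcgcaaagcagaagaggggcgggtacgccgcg
Acsl6: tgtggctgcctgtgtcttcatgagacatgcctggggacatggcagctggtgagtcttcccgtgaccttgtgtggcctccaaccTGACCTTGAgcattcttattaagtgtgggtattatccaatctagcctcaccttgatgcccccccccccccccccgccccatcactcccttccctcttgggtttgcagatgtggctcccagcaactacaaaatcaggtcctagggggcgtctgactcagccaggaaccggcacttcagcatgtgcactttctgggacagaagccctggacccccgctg
The capitals in Etfb and Etfdh are matches to the site of NRF1, a regulator of mitochondrial genes (GCGCA, any base, GCGC), beginning at positions -11 and -128 from the start. Etfa has no such match in this window. In Acsl6 the capitals are TCAAGGTCA on the opposite strand, the response element of ERR receptors, beginning at position -167. The other Acsl6 promoters had no match to the motifs searched, and promoters of the remaining called members are not shown. Which Acsl6 start is used in heart was not tested.

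Of the 42 members, 33 had 39 promoters in the table, and 7 motifs were searched on both strands. The NRF1 site was in 3 of the 39, those of Etfb, Etfdh and Slc22a5, and in 4.6% of all 32851 promoters. TCAAGGTCA was in 1 of the 39, the first of 3 Acsl6 promoters in the table, and in 0.423% of all. CACGTG, the E-box bound by clock factors, was in 1 promoter of Slc27a1 and in 7.15% of all. None of the 39 held the PPAR element, AGGTCA repeated after 1 free base, which is in 0.0396% of all promoters. None held its looser form, AGGNCA repeated in the same way (0.381%), which includes the strict one, or the cyclic AMP element TGACGTCA (1.79%). The glucocorticoid element, AGAACA and TGTTCT with 3 free bases between, was in none of the 39 and in 0.00913% of all.

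Of the 5 genes from hydration to thiolysis, 1 was called, Acaa2. Acaa2, a mitochondrial thiolase that releases acetyl-CoA, had 1166, 1162 and 1331.5 CPM in old libraries, against 879, 906 and 921 CPM in young libraries. Old libraries were all above young ones, and old 3 was highest (log2 fold change 0.44 ± 0.08 SE, edgeR adjusted p = 0.0041), a call kept in each of the 18 alternative fits. Hadha and Hadhb encode the subunits of the trifunctional protein, which handles long chains. Hadha had 1689, 1754 and 1698 CPM in old libraries, against 1646, 1658 and 1749 CPM in young libraries. The groups overlapped, as they did for Hadhb, and the intervals were -0.14 to 0.19 and -0.10 to 0.25 on the log2 scale. The Hadhb transcript shares 52.8% of its 100-base windows with other genes, most of them with Gm13910. How reads were split between them was not tested. Echs1, the short-chain hydratase, had an interval of -0.16 to 0.19. Hadh, the short-chain hydroxyacyl dehydrogenase, had 845, 814 and 867 CPM in old libraries, against 784, 765 and 762 CPM in young libraries, without overlap but not called (log2 fold change 0.13 ± 0.08 SE, edgeR adjusted p = 0.26).

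Of the 3 genes for unsaturated chains, 1 was called higher. This was Decr1, the dienoyl-CoA reductase needed for polyunsaturated acids, with 515, 542 and 522 CPM in old libraries, against 405, 414 and 418.5 CPM in young libraries. The groups were well apart (log2 fold change 0.35 ± 0.08 SE, edgeR adjusted p = 0.0076), though without young 1 the edgeR adjusted p was 0.054. The isomerase genes Eci1 and Eci2, which shift double bonds, had log2 fold changes of 0.18 ± 0.08 and 0.19 ± 0.08. For both the groups did not overlap in CPM, and the edgeR adjusted p was 0.13 and 0.12. In peroxisomes, which shorten very long chains, neither member was called. The thiolase gene Acaa1a had a log2 fold change of 0.06 ± 0.08. It shares 21.6% of its 100-base windows with Acaa1b, which had 2 to 13 counts. The bifunctional enzyme gene Ehhadh had 14.1, 9.42 and 20.5 CPM in old libraries, against 17.2, 14 and 16.2 CPM in young libraries. Old 2 was the lowest and old 3 the highest of the 6 libraries for Ehhadh (log2 fold change -0.11 ± 0.21 SE, edgeR adjusted p = 0.74).

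Of the 3 thioesterase genes, whose products split acyl-CoA back into free acid and CoA, 1 was called, lower. This was Acot1, the cytosolic form, with 15.8, 14.9 and 20.9 CPM in old libraries, against 25.2, 24.9 and 23.1 CPM in young libraries. All old libraries were below all young ones, with old 3 nearest (log2 fold change -0.51 ± 0.12 SE, edgeR adjusted p = 0.014). The call was lost without young 1 (-0.49, edgeR adjusted p = 0.055) and without old 1 (-0.44, edgeR adjusted p = 0.055). Acot2, its mitochondrial paralogue, had 73.8, 64.3 and 72.6 CPM in old libraries, against 69.3, 64.1 and 72 CPM in young libraries, with overlap and an interval of -0.15 to 0.23. Acot1 and Acot2 are near-identical in part: 21.9% of the 100-base windows of the longest coding Acot1 transcript in GENCODE also occur in other genes' transcripts, most of them in Acot2, so how reads were split between them is uncertain. The share of Acot1 in the FPKM of both genes was 23.1%, 24.6% and 28.9% in old libraries, against 33.9%, 35.4% and 31.2% in young libraries. The shares did not overlap (exact 2-sided permutation p = 0.1, adjusted p = 0.267). Acot13, a mitochondrial thioesterase, had a log2 fold change of 0.14 ± 0.10 SE with edgeR adjusted p = 0.33.

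Of the uncoupling proteins, mitochondrial carriers whose levels follow fatty acid supply, Ucp2 was called higher. It had 136, 122 and 115.5 CPM in old libraries, against 74.6, 105.5 and 87.1 CPM in young libraries. Every old library exceeded every young one, the closest pair being old 3 and young 2 (log2 fold change 0.49 ± 0.12 SE, edgeR adjusted p = 0.014). The call was lost without young 1 (0.37, edgeR adjusted p = 0.068), young 3 (0.47, 0.066) or old 1 (0.43, 0.052), and on FPKM with no filter (0.41, limma adjusted p = 0.067). Ucp2 is also transcribed in macrophages, whose summed markers, given above, overlapped between the groups with old 1 and old 2 highest. Their part was not tested. Ucp3, the muscle form, had 64.5, 22.9 and 124 CPM in old libraries, against 40.2, 28.4 and 41.6 CPM in young libraries. Old 2 was the lowest of all 6 libraries and old 3 the highest, a 5.43-fold range within the old group against 1.46-fold within the young group. It was not called (log2 fold change 0.94 ± 0.41 SE, edgeR adjusted p = 0.12), and without old 2 it was (1.37, adjusted p = 0.0016). Without old 3 its log2 fold change was 0.25. The share of Ucp2 in the FPKM of both genes was 75%, 88.4% and 56.9% in old libraries, against 72.5%, 84.1% and 74.9% in young libraries, with overlap (exact 2-sided permutation p = 0.9, adjusted p = 0.9).

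**Figure D4:**
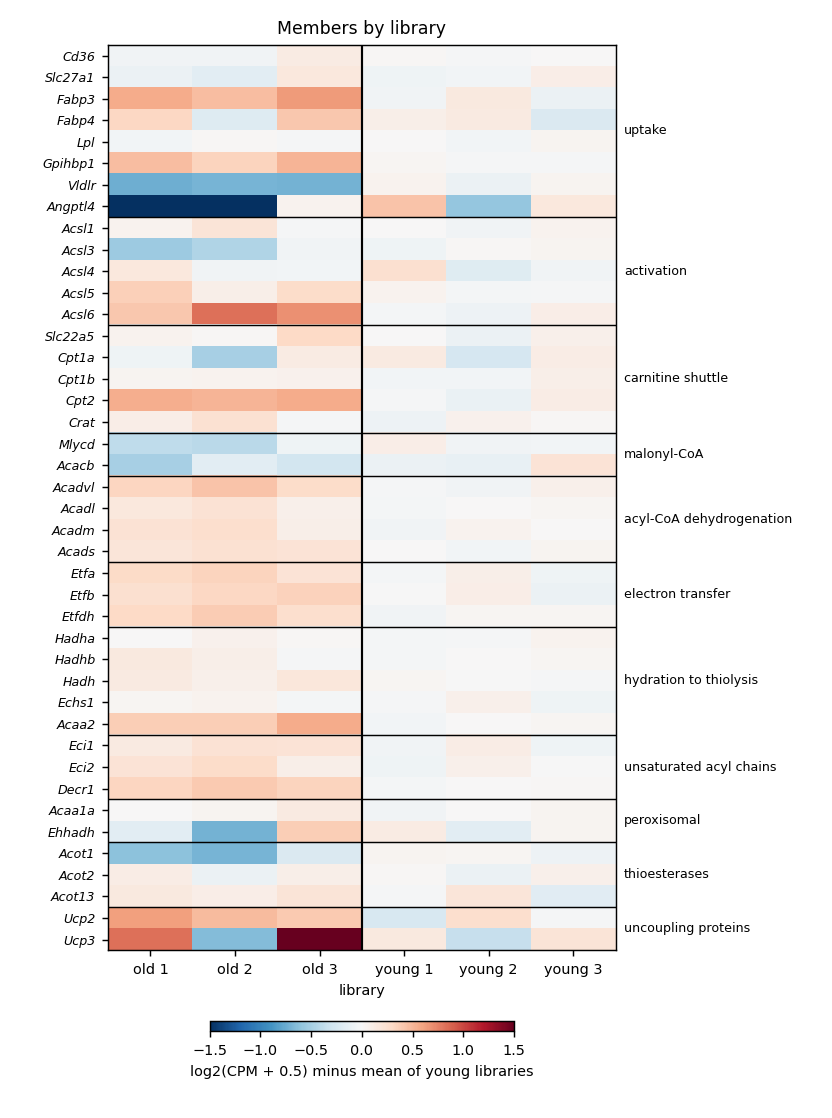
Level of each member in each library as log2(CPM + 0.5) minus the mean of the young libraries, in pathway order, with colours saturating at 1.5. Most genes from Acadvl to Decr1 are faintly higher in the 3 old libraries, Vldlr is lower in all 3, and Angptl4, Ehhadh and Ucp3 differ among the old libraries.

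Some members varied widely among the 3 old hearts, in a shared order. Angptl4, Cpt1a, Ehhadh and Ucp3 were each highest among the old libraries in old 3 and lowest in old 2, where Angptl4 was all but equal to old 1. Within the old group Angptl4 ranged 3.69-fold, Ehhadh 2.17-fold and Cpt1a 1.55-fold, against 2.04-fold, 1.23-fold and 1.31-fold within the young group. Pdk4, which encodes the kinase that shuts off pyruvate dehydrogenase and is no member, had 289, 277 and 583 CPM in old libraries, against 588, 493 and 675 CPM in young libraries. It showed the same order, with old 3 within the young range, and was not called (log2 fold change -0.61 ± 0.24 SE, edgeR adjusted p = 0.084). These genes were picked together after their values were seen, so that the shared order follows from the choice. Members with smaller ranges, such as Cd36, Fabp3 and Acaa2, also had this order, while others, such as Acsl1 and Acadvl, did not. The summed endothelial markers had the same order, with 2973.6, 2792.2 and 3229.8 CPM in old 1, old 2 and old 3. So did the low sums of adipocyte and hepatocyte markers, but not those of cardiomyocyte, macrophage and skeletal muscle markers. A part of cell content in this order was not tested.

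**Figure D5:**
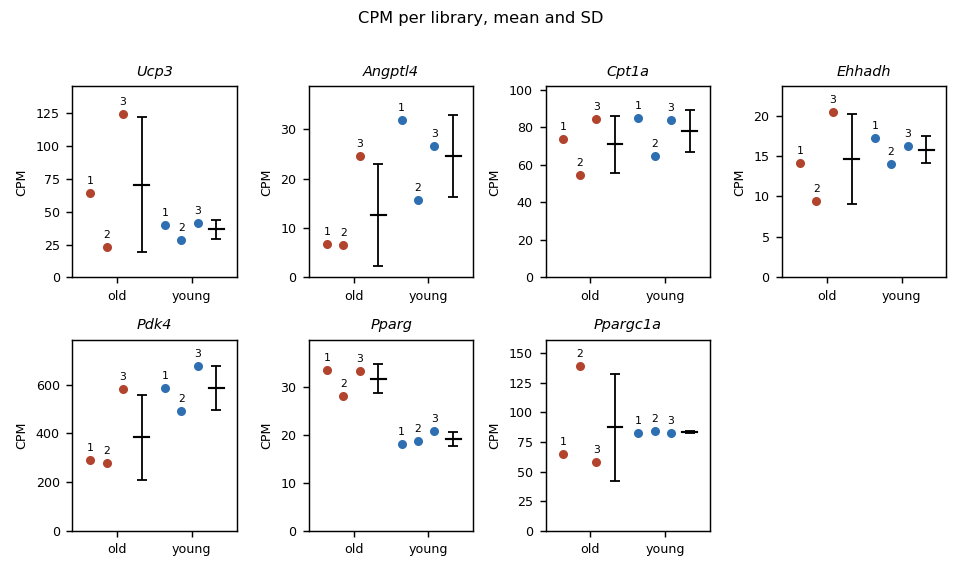
CPM per library of 4 members (Ucp3, Angptl4, Cpt1a, Ehhadh) and 3 related genes (Pdk4, Pparg, Ppargc1a), with the mouse number above each point and the mean and SD (n = 3) beside the points. The old libraries spread widely in Ucp3, Angptl4, Pdk4 and Ppargc1a, while for Pparg they all lie above the young ones.

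Among the controllers of the pathway, 1 of 20 PPAR, ERR and coactivator genes was called, or 5.0% beside 22.0% of all tested genes. Their median log2 fold change was -0.03. The called gene was Pparg, better known from fat cells, with 33.7, 28.3 and 33.4 CPM in old libraries, against 18.1, 18.8 and 20.8 CPM in young libraries. The groups did not overlap (log2 fold change 0.72 ± 0.10 SE, edgeR adjusted p = 0.00051), and the adipocyte markers other than Lipe were at or near 0, as given above. A part of cell content in the Pparg difference was not tested. Ppara, the main PPAR of heart muscle, had 92.5, 122 and 78.3 CPM in old libraries, against 73.8, 73.2 and 79.4 CPM in young libraries, with old 3 inside the young range (log2 fold change 0.37 ± 0.13 SE, edgeR adjusted p = 0.068). Ppargc1a, the coactivator PGC-1 alpha, had 64.4, 139 and 58.1 CPM in old libraries, against 82.9, 84.4 and 82.6 CPM in young libraries, where old 2 was highest and the other old libraries lowest of the 6 (log2 fold change 0.07 ± 0.25 SE, edgeR adjusted p = 0.87). Of 8 tested PPAR target genes outside the members 4 were called higher and 0 lower, with a median of 0.28. Over all tested genes 11.4% were called higher. The called targets were Pex11a (0.63 ± 0.10), Cidea (0.43 ± 0.08), Ech1 (0.40 ± 0.08) and Slc25a20. Not called were Plin2 (0.23 ± 0.08), Plin5 (0.14 ± 0.09), Txnip (-0.28 ± 0.16) and Pdk4 (-0.61 ± 0.24, edgeR adjusted p = 0.084). Pex11a, Ech1 and Slc25a20 are counted again in the peroxisomal and mitochondrial lists below. Of 12 genes of AMPK and malonyl-CoA control, with a median of -0.09, 25.0% were called, beside 22.0% of all tested genes. Of these 1 was higher, Thrsp (0.65 ± 0.11), and 2 lower. The lower ones were Prkaa1, a catalytic AMPK subunit (-0.48 ± 0.10), and its partner Prkab1 (-0.31 ± 0.10). Prkab1 was called in only 2 of the 6 fits that left out a library.

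The share of genes called in the other lists of fatty acid handling was near the 22.0% of all tested genes: 23.1% for uptake and lipase control, 25.0% for mitochondrial and 26.3% for peroxisomal oxidation. Of 13 tested genes of uptake and lipase control 2 were called higher and 1 lower, with a median of -0.04. Dbi, the acyl-CoA binding protein, had 162, 149 and 160.1 CPM in old libraries, against 94.9, 109.9 and 84.1 CPM in young libraries. All old libraries were above the young ones (log2 fold change 0.71 ± 0.10 SE, edgeR adjusted p = 0.00058). The length behind the FPKM of Dbi is 745 bases. Removal of the gene length trend lowered the estimates of the short members Fabp3, Gpihbp1 and Etfb. Its effect on Dbi and other genes outside the members is not given here. Lmf1, needed for lipase maturation, was called higher (log2 fold change 0.44 ± 0.09). Sel1l, also needed for lipase maturation, was lower (-0.29 ± 0.09), but in only 2 of the 6 fits that left out a library. Of 20 other mitochondrial genes 4 were called higher and 1 lower, with a median of -0.07. The higher ones were Auh (0.36 ± 0.08), Slc25a20, Acad11 (0.44 ± 0.11) and Acot11 (0.35 ± 0.11), and the lower one was Acad12 (-0.44 ± 0.11). Acad11 was not called without young 1, nor Acad12 without young 3, and Acot11 was called in only 2 of those 6 fits. Of 19 tested genes of peroxisomal oxidation 5 were called higher and 0 lower, with a median of 0.14, where 11.4% of all tested genes were called higher. They were Pex11a, Abcd3, a fatty acyl-CoA importer (0.42 ± 0.08), Ech1, Scp2 (0.40 ± 0.09) and Pecr (0.54 ± 0.14), the last not called without young 1 or without young 3.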

How the data were processed

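Gene counts and FPKM values of 6 mouse heart libraries, 3 old and 3 young, were used. A mirVana kit served for RNA extraction and a TruSeq Stranded mRNA kit, based on poly(A) selection, for the libraries, per the labels' protocols. The submitters' processing notes name Trimmomatic, HISAT2, Bowtie2, HTSeq, Cufflinks, StringTie, DESeq and GRCm39, whose roles and versions, like the strand setting of the counting, stand in none of the sources used here, so reads of antisense partners cannot be told apart. The authors deposited whole-number read counts per gene with no normalization, and beside them FPKM values, which divide each count by gene length and library total. In the deposited tables counts over FPKM gave a single length for each of 16964 genes, within a relative deviation of 1e-05. The 12 per-sample files equalled their columns in these tables.

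Counts were fitted with edgeR 4.0.16 in R 4.3.3 (filterByExpr, TMM factors, quasi-likelihood F test of old against young). Benjamini-Hochberg adjustment ran over the 12893 genes tested, and genes were called at an adjusted p under 0.05. The SE is the log2 fold change over the root of F, and intervals are 95%. The p-values set the difference of old and young against the variation between the 3 mice of a group. That variation is estimated for each gene with information shared across genes. The fit was tested on simulated data. Alternatives used DESeq2 1.42.0 and limma 3.58.1, FPKM tests with log2(FPKM + 1) or log2(FPKM + 0.1) and a mean of at least 1 FPKM or no filter, other scalings and filters, removal of a loess trend on gene length, and leaving out each library. Shared 100-base windows came from GENCODE M21 transcripts, longest coding transcript per gene, and promoters from RefSeq.

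The members, gene lists, marker lists and ratios were chosen with earlier results of these data known. Every called member is named with its values, and of each other list up to 4 called genes of smallest p, plus single ones needed to complete a count. Some genes of these lists are not reported here, and the lists were counted without them. The background at 100 CPM, and the genes described for the spread among old libraries, were chosen after the values were seen. Replicate libraries differed by 7.9 to 16.67 chi-square per degree of freedom, so none was a duplicate. Old and young mice share numbers in the labels, and the correlations of same-numbered deviations were 0.078, 0.078 and 0.007, so that the numbers were not taken as pairs.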

Additional observations from a re-analysis of the deposited data

How the results depend on the processing

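All 13 called members kept their direction in each of the 20 alternatives, and 6 of them (Fabp3, Gpihbp1, Vldlr, Acsl6, Cpt2 and Acaa2) were called in all 6 fits that left out a library. Vldlr, Acsl6, Cpt2 and Acaa2 were called in each of the 18 alternative fits. Of 840 member values under alternatives 780 stayed on their side of the threshold, 37 lost a call and 23 gained one. Members with estimates near 0, such as Hadha, Hadhb and Echs1, changed sign with the scaling.

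Against 11 members called higher, FPKM with no filter gave 6 and an adjusted p under 0.01 gave 6, and leaving out a library gave 5 to 13. Against 2 called lower, FPKM with a pseudocount of 0.1 or of 1, library size alone and upper-quartile factors each gave 4, an adjusted p under 0.01 gave 1, one under 0.1 gave 4, and leaving out a library gave 1 to 5. Over all genes 1467 were called higher, against 897 and 907 on FPKM with a pseudocount of 0.1 and of 1, 810 on FPKM with no filter, 724 at an adjusted p under 0.01 and 850 to 1597 with a library left out. Over all genes 1368 were called lower, against 2122 with library size alone, 531 at an adjusted p under 0.01 and 682 to 1444 with a library left out. The cause of these shifts was not tested, apart from thresholds and smaller groups.

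Of 56 ratio values under alternatives 52 moved by less than the spread between mice. The other 4 changed sign. The ratio Ucp2 percent of Ucp2 and Ucp3 differed by 4.51 percentage points, old minus young, without old 3. The ratio Acacb over Mlycd differed by 0.0124 without old 1, 0.0369 without old 3 and 0.0553 without young 3.

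The mouse number as a replicate block gave 10 members higher and 3 lower, and 1417 and 1317 over all genes. Under the block Etfa was lost (0.28, edgeR adjusted p = 0.054) and Angptl4 gained (-1.08, edgeR adjusted p = 0.023). The mouse numbers are not shown to pair the animals.

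With 3 mice per group the exact permutation test of a ratio cannot fall below 0.1. The widest intervals were those of Angptl4 and Ucp3 (SE 0.41 each), followed by Ehhadh (SE 0.21) and Acsl3 (SE 0.18). They were not confined to members with few counts, since Ucp3 had 265 to 1435 counts. Acsl4 and Acsl6, with few counts, had SE 0.13 and 0.12. The ages, strain and sex of the mice are not in the labels, so a difference in strain or sex between the groups cannot be told apart from age.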
